A study of Mus musculus with 12 samples.

Results

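The 9 genes described here encode the glutamate uptake transporters and the neutral amino acid exchangers of the Slc1 family (Slc1a1, Slc1a2, Slc1a3, Slc1a4 and Slc1a5), glutamine synthetase (Glul), and glutamine transporters of the Slc38 family (Slc38a1, Slc38a2 and Slc38a3). They were listed by gene symbol, without a threshold on any measured value but with earlier results of these data known; all 9 were found among the 55471 genes of the count table, and all 9 were among the 19578 genes with enough reads to be tested. The cultures were primary hippocampal neurons of WT genotype, prepared from embryonic CD1 mice of mixed-sex litters. Gapmers, antisense oligonucleotides that lead RNase H to cut nuclear RNA, were packaged into lipid nanoparticles and given at day in vitro (DIV) 7, and RNA was isolated at DIV 10. The control group received control gapmers with no known target, the *Neuid* KD group received gapmers against the lncRNA *Neuid*, and each group had 6 libraries. The *Neuid* KD group rests on a single gapmer sequence, and no untreated culture was sequenced among these libraries. The labels number the libraries but do not say that they came from separate cultures, so p-values measure the spread between these libraries, which may be technical.

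Glutamate released at synapses is removed from the extracellular space by sodium-coupled transporters, of which GLT-1 (Slc1a2) and GLAST (Slc1a3) are mainly astrocytic and EAAC1 (Slc1a1) is mainly neuronal. In astrocytes, glutamine synthetase joins ammonia to glutamate. The resulting glutamine leaves through transporters such as SNAT3 (Slc38a3) and enters neurons, where SNAT1 (Slc38a1) and SNAT2 (Slc38a2) carry it and it is turned back into glutamate. The culture medium contained a stabilized glutamine dipeptide, so glutamine was supplied from outside to all libraries.

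Between 18002585 and 30914714 reads were counted on genes in control libraries and between 11152556 and 30573480 in *Neuid* KD libraries. *Neuid* (Gm10419, ENSMUSG00000072769) was at 28.4 ± 2.03 CPM (counts scaled by the normalized size of each library) in control and at 8.05 ± 1.13 CPM in *Neuid* KD (SD, n = 6 per group), with no overlap. Reads on 2014 chemosensory receptor genes, which neurons of the hippocampus should hardly use, served to gauge the background of each library. They summed to between 26.7 and 667 CPM in control and between 27.1 and 617 CPM in *Neuid* KD, and 4 control and 3 *Neuid* KD libraries held at least 100 CPM. Besides neuronal RNA, the libraries held RNA of genes used as astrocyte markers, and which cells it came from was not measured: among control libraries the neuronal gene Map2 had a mean of 2625 CPM, and the astrocyte genes Gfap and Aqp4 had means of 140 and 32.6 CPM.

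Of the 9 genes, 5 rose after *Neuid* KD (adjusted p under 0.05, edgeR's quasi-likelihood test with Benjamini-Hochberg adjustment over all tested genes), while 6.31% of all tested genes were called higher. Slc38a3 rose most, followed by Slc1a3, Glul, Slc1a2 and Slc1a4. With the study's threshold of an absolute log2 fold change above 0.5 added, 4 of the 9 were upregulated, against 2.44% of all tested genes. The same 5 genes were higher in each *Neuid* KD library than in any control library, which was so for 4.13% of all tested genes. None of the 9 genes was called lower by edgeR, where 2.42% of all tested genes were (0.792% below a log2 fold change of -0.5), and none lay lower in each *Neuid* KD library than in any control library, as did 1.57% of all tested genes. The number of members lower at an unadjusted p under 0.05 was 0 as well, and DESeq2 and limma-trend also called 0 lower. The median log2 fold change was 0.38 over the 9 genes and -0.03 over all tested genes.

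**Figure D1:**
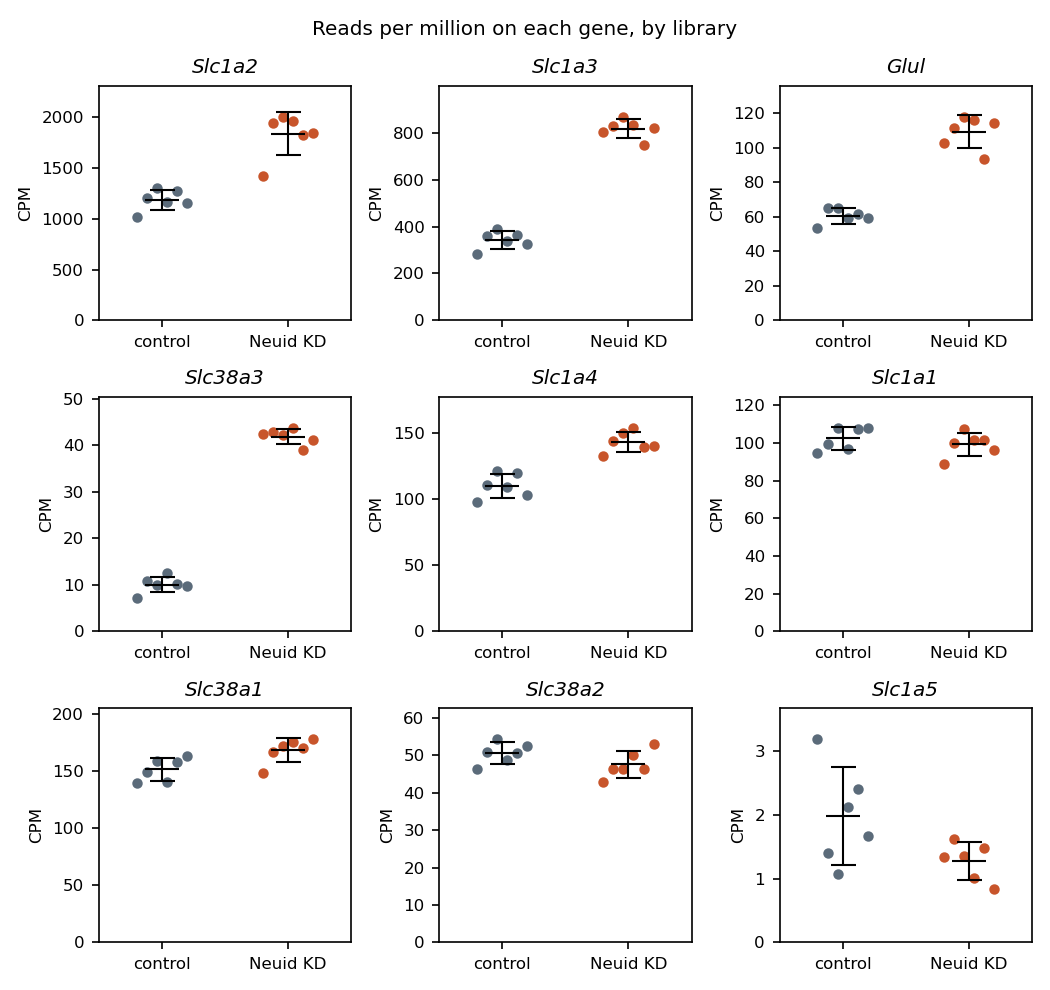
Scaled counts (CPM, linear axis from 0) of each of the 9 genes in the 6 control and the 6 Neuid KD libraries, 1 point per library in the order of replicate numbers, with the mean and SD as lines. The 2 groups are apart for Slc1a2, Slc1a3, Glul, Slc38a3 and Slc1a4, and overlap for Slc1a1, Slc38a1, Slc38a2 and Slc1a5.

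Among the uptake transporters, both astrocytic genes rose and the neuronal gene showed no difference beyond the spread. Slc1a3 (ENSMUSG00000005360, chr15:8634124-8710764, minus strand, GRCm38), which encodes GLAST, a transporter that astrocytes share with radial glia, was at 282, 361, 391, 339, 364 and 324 CPM in control replicates 1 to 6. It was at 801, 828, 869, 833, 748 and 820 CPM in *Neuid* KD replicates 1 to 6. The lowest *Neuid* KD library thus lay far above the highest control library. The means were 343 ± 37.6 and 817 ± 40.2 CPM (SD, n = 6 per group), a 2.38-fold difference, or 1.25 on the log2 scale (95% interval 1.11 to 1.39, standard error 0.0674, adjusted p = 6.7e-10, edgeR).

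Slc1a2 (ENSMUSG00000005089, chr2:102658659-102790784, plus strand), which encodes GLT-1, the transporter that takes up most glutamate in the adult forebrain, rose less. It was at 1019, 1207, 1302, 1160, 1268 and 1153 CPM in control replicates 1 to 6, and at 1425, 1942, 2004, 1960, 1825 and 1847 CPM in *Neuid* KD replicates 1 to 6. The groups did not overlap, and *Neuid* KD replicate 1, the library with the fewest reads and a background of 617 CPM, was well below the other libraries of its group. The means were 1185 ± 100.02 and 1834 ± 212 CPM (SD, n = 6 per group), a 1.55-fold difference, or 0.63 on the log2 scale (95% interval 0.47 to 0.79, standard error 0.0764, adjusted p = 1.8e-05, edgeR). Without *Neuid* KD replicate 1 the log2 fold change was 0.65. An exon of Slc1a2 overlaps Gm13872 on the opposite strand, and the strand setting of the counting is not given in the sources used here.

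Slc1a1 (ENSMUSG00000024935, chr19:28835049-28913960, plus strand), which encodes the neuronal transporter EAAC1, was between 94.8 and 108 CPM in control (median 104) and between 88.8 and 107 CPM in *Neuid* KD (median 101). The groups overlapped, and *Neuid* KD replicate 1, at 88.8 CPM, lay below every control library. The log2 fold change was -0.04 (95% interval -0.16 to 0.07, adjusted p = 0.786, edgeR), so that the interval held no change in either direction as large as that of Slc1a2 or Slc1a3. An exon of this gene overlaps 4430402I18Rik on the opposite strand.

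Of the neutral amino acid exchangers of the same family, 1 rose by a small amount and the other had few reads. Slc1a4 (ENSMUSG00000020142, chr11:20302180-20332713, minus strand), the exchanger ASCT1 that carries alanine, serine and cysteine, was between 97.6 and 121 CPM in control (median 109.7) and between 133 and 154 CPM in *Neuid* KD (median 142). The groups did not overlap, and the log2 fold change was 0.38 (95% interval 0.26 to 0.50, standard error 0.0585, adjusted p = 2.4e-04, edgeR). With offsets for GC content and length in the fit, the log2 fold change of Slc1a4 was 0.44 and its adjusted p was 0.602. Slc1a5 (ENSMUSG00000001918, chr7:16781340-16798274, plus strand), the glutamine-carrying exchanger ASCT2, had 430 reads over all 12 libraries and between 16 and 62 reads in each. It was at 3.20, 1.41, 1.07, 2.13, 2.41 and 1.67 CPM in control replicates 1 to 6 and at 1.35, 1.63, 1.36, 1.01, 1.48 and 0.837 CPM in *Neuid* KD replicates 1 to 6. These ranges overlapped, and the log2 fold change of -0.63 did not pass the test (standard error 0.297, 95% interval -1.26 to 0.0025, adjusted p = 0.268, edgeR). At this depth neither no change nor a large decrease of Slc1a5 lay outside the interval.

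Glul (ENSMUSG00000026473, chr1:153899944-153909723, plus strand) encodes glutamine synthetase, which in the brain is found chiefly in astrocytes, and it rose. It was at 53.3, 65.4, 65.1, 59.3, 61.7 and 59.3 CPM in control replicates 1 to 6 and at 103, 111, 118, 116, 93.6 and 115 CPM in *Neuid* KD replicates 1 to 6. The groups were apart by more than the whole range of the control libraries. The means were 60.7 ± 4.52 and 109 ± 9.38 CPM (SD, n = 6 per group), a 1.80-fold difference, or 0.85 on the log2 scale (95% interval 0.71 to 0.99, standard error 0.0652, adjusted p = 6.8e-08, edgeR). Glul overlaps exons of Teddm2 on the opposite strand and of Mir8114 on its own strand, and reads of these could not be told apart.

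Among the glutamine transporters, the astrocytic gene rose and the other 2 did not pass the test. Slc38a3 (ENSMUSG00000010064, chr9:107650634-107669530, minus strand), which encodes SNAT3, was at 7.28, 10.9, 9.91, 12.5, 10.1 and 9.72 CPM in control replicates 1 to 6. It was at 42.3, 42.8, 42.2, 43.8, 39.0 and 41.1 CPM in *Neuid* KD replicates 1 to 6. Every *Neuid* KD library held more than the highest control library by a wide margin, and the *Neuid* KD libraries lay close together. The means were 10.1 ± 1.70 and 41.9 ± 1.68 CPM (SD, n = 6 per group), a 4.16-fold difference, or 2.05 on the log2 scale (95% interval 1.87 to 2.23, standard error 0.0851, adjusted p = 3.5e-11, edgeR).

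Slc38a1 (ENSMUSG00000023169, chr15:96571418-96642913, minus strand), which encodes SNAT1 and lies next to Slc38a2 on the chromosome, was between 139 and 163 CPM in control (median 153) and between 148 and 178 CPM in *Neuid* KD (median 171). The groups overlapped. Its log2 fold change of 0.15 (95% interval 0.03 to 0.27) did not pass the test (adjusted p = 0.117, edgeR), and it passed in 5 of the other fits, with log2 fold changes between 0.12 and 0.15 and the lowest adjusted p at 0.0209. Slc38a2 (ENSMUSG00000022462, chr15:96687392-96699730, minus strand), which encodes SNAT2, a transporter induced by amino acid shortage, was between 46.2 and 54.4 CPM in control (median 50.7) and between 42.9 and 53.0 CPM in *Neuid* KD (median 46.4). These groups overlapped too, with a log2 fold change of -0.09 (95% interval -0.21 to 0.03, adjusted p = 0.477, edgeR). With upper-quartile scaling it was -0.15 with an adjusted p of 0.0374, and with a minimum mean of 5 CPM it was -0.13 with an adjusted p of 0.0396.

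The promoters of members that rose are shown because these genes moved in the same direction. RefSeq (GRCm38.p6) gave a promoter for 6 of the 9 genes, and the 250 bases before the start are printed for Slc1a3, Slc1a4 and Glul, whose RefSeq starts lie 43, 0 and 15 bases from the outermost start in GENCODE. The RefSeq start of Slc1a2 lies 47779 bases inside the GENCODE gene, and its promoter is not printed. Each is written 5′ to 3′ on the strand of the gene, and capitals mark matches, on either strand, to TTGGC (the short site of nuclear factor I, a factor of glial genes) or TGATGNAA (the composite site of ATF4, a factor of the amino acid response).
Slc1a3, chr15:8710808-8711057, minus strand: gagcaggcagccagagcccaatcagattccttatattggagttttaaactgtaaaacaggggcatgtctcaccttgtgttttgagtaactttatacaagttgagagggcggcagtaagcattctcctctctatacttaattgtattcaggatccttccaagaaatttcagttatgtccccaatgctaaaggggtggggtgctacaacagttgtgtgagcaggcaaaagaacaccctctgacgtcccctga
Slc1a4, chr11:20332714-20332963, minus strand: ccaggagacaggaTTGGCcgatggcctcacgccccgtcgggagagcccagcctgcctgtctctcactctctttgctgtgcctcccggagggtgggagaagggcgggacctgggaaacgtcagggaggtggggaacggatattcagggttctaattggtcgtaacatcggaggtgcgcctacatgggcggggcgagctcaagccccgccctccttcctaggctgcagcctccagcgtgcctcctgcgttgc
Glul, chr1:153899679-153899928, plus strand: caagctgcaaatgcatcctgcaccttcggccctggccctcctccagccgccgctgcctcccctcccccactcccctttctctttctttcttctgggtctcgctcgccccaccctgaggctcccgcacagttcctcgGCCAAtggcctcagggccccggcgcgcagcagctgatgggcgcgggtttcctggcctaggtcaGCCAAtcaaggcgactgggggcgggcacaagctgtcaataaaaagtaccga

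The promoter of Glul held 2 TTGGC matches, that of Slc1a4 held 1 TTGGC match, and that of Slc1a3 held no match to these letters. TGATGNAA matched in none of these 3. Of the members that did not pass the test, Slc1a1 held 1 TTGGC match and Slc38a2 held 0, in promoters not printed here. GCCAA, the same site read on the other strand, shares 4 of its letters with the CCAAT box of many promoters. The base next to each marked match completes a CCAAT box, read on either strand, so the letters do not tell these sites apart. TTGGC occurred in 41.5% of the 32851 RefSeq promoters of this length and TGATGNAA in 3.45%. A match is a description of the letters and not evidence of binding.

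Divided by the length of the exons, the order of the genes in control libraries ran from Slc1a2 at 90.2 ± 7.62 CPM per kb through Slc1a3 (40.2 ± 4.41), Slc1a4 (28.1 ± 2.32), Glul (18.3 ± 1.36), Slc1a1 (12.4 ± 0.740), Slc38a1 (8.78 ± 0.574), Slc38a2 (5.72 ± 0.326) and Slc38a3 (1.91 ± 0.322) to Slc1a5 (0.475 ± 0.184), each a level per kb as mean ± SD with n = 6. No neighbours in that order overlapped between libraries. In *Neuid* KD libraries the order was the same except that Slc38a3, at 7.93 ± 0.318 CPM per kb, stood above Slc38a2, at 5.38 ± 0.397 CPM per kb. There Slc1a4 (36.5 ± 1.97 CPM per kb) and Glul (32.9 ± 2.82 CPM per kb) overlapped and were the only neighbours to do so. The length counts every annotated exon of a gene, so a gene that uses a short isoform is placed too low.

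As a share of the summed CPM per kb of the 5 Slc1 genes, Slc1a3 made up 23.4% ± 0.728 in control and 33.8% ± 2.15 after *Neuid* KD (SD, n = 6 per group). Slc1a1 made up 7.25% ± 0.445 and 4.23% ± 0.153, and Slc1a4 16.4% ± 0.346 and 12.9% ± 0.474. Slc1a2 remained the largest share, at 52.6% ± 0.212 and 49.0% ± 2.54, and its *Neuid* KD libraries ranged from 43.9% in replicate 1 to 50.6%. Of the 3 Slc38 genes, Slc38a3 made up 11.6% ± 1.85 in control and 34.4% ± 1.82 in *Neuid* KD, while Slc38a1 went from 53.5% ± 1.60 to 42.3% ± 1.33 and Slc38a2 from 34.9% ± 0.683 to 23.3% ± 0.850. These shares add up within a library, so a larger share of 1 gene makes the others smaller.

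**Figure D2:**
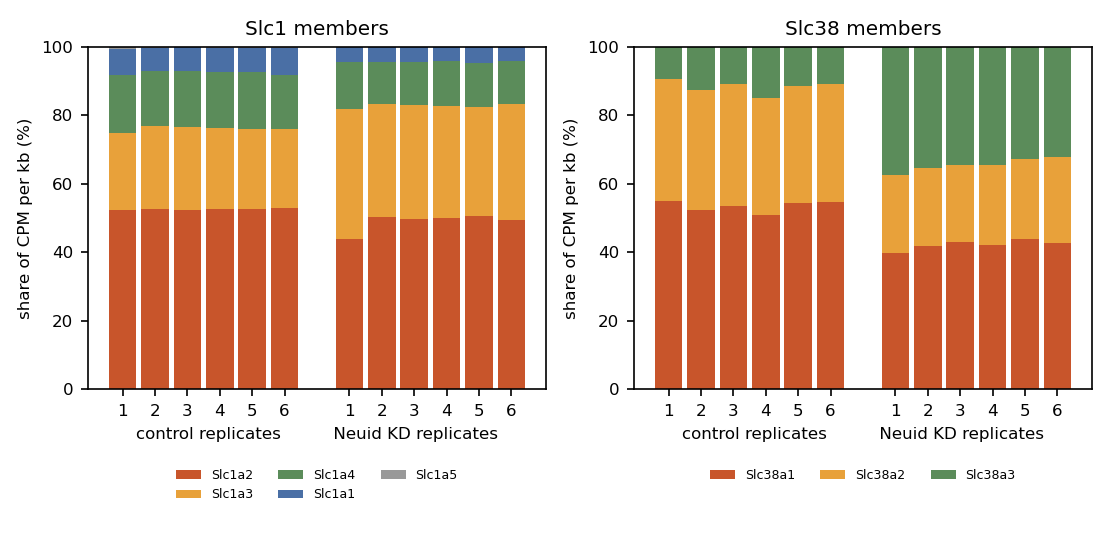
Share of the summed CPM per kb (%, linear axis from 0 to 100) that each Slc1 gene (left) and each Slc38 gene (right) held in each control and Neuid KD library, 1 stacked bar per library. Slc38a3 took 11.6% of the Slc38 sum on average in control and 34.4% in Neuid KD, and Slc1a3 took 23.4% and 33.8% of the Slc1 sum.

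Ratios of reads within a library do not depend on scaling between libraries, and 12 of them were compared between the groups by a two-sided exact permutation test over all arrangements of 6 against 6, with Benjamini-Hochberg adjustment over the 12. The ratios asked whether the members changed by different amounts. Slc1a3 rose by more than Slc1a2: the log2 ratio of Slc1a2 to Slc1a3 was 1.79 ± 0.0474 in control and 1.16 ± 0.166 in *Neuid* KD (SD, n = 6 per group), a difference of -0.63 (95% interval -0.78 to -0.52, by inverting the exact test). Relative to the neuronal Slc1a1, the log2 ratio was higher by 0.67 for Slc1a2 (interval 0.55 to 0.78) and by 1.30 for Slc1a3 (interval 1.16 to 1.44). Glul rose by less than Slc1a3 (difference in log2 ratio -0.41, interval -0.49 to -0.32). Slc38a3 gained 1.92 on Slc38a1 (interval 1.66 to 2.16) and 2.16 on Slc38a2 (interval 1.92 to 2.39) on the log2 scale. In each of these 6 ratios the groups did not overlap and the exact permutation p was 0.00216, the smallest that the arrangements allow, with an adjusted p of 0.0026. The ratio of Slc1a5 to Slc1a4 was lower by 0.95 on the log2 scale (interval -1.63 to -0.29, exact permutation test, adjusted p = 0.0165), with overlap between the groups and few reads of Slc1a5. That difference includes the rise of Slc1a4 (log2 fold change 0.38), and Slc1a5 by itself did not pass (-0.63, adjusted p = 0.268, edgeR).

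Markers of astrocytes, and some of neural progenitors and oligodendrocyte precursors, rose with these genes. All 11 tested astrocyte markers, none of them a member, rose (median log2 fold change 1.55), and their summed level was between 499 and 580 CPM in control and between 1183 and 1339 CPM in *Neuid* KD; the twelfth marker, Gjb6, had too few reads to be tested. Among them, the water channel gene Aqp4 went from 32.6 to 140 CPM and the gap junction gene Gja1 from 27.5 to 133 CPM on average. Of 8 markers of neural progenitors and division, Nes, Pax6, Sox2, Hes5 and Fabp7 rose, with the list's sum between 462 and 545 CPM in control and between 968 and 1140 CPM in *Neuid* KD, whereas the division genes Mki67, Top2a and Cdk1 had log2 fold changes of -0.08, 0.01 and -0.05. Of 6 markers of oligodendrocyte precursors, Olig1 and Olig2 rose, and the defining marker Pdgfra was at 6.69 and 9.17 CPM with an adjusted p of 0.223 (edgeR). Of 10 neuronal markers, 1 (Elavl4, log2 fold change -0.21) fell, the median log2 fold change was 0.00, and the sum was between 6047 and 7080 CPM in control and between 5953 and 7062 CPM in *Neuid* KD. In bulk RNA, more cells of a type and more RNA of a gene per cell cannot be told apart.

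The remaining marker lists were low in both groups. Microglial markers summed to between 6.57 and 11.6 CPM in control and between 5.80 and 10.8 CPM in *Neuid* KD, with 4 of 7 at under 1 CPM in every library. Endothelial markers summed to at most 14.9 CPM, and markers of fibroblasts and mural cells to at most 50.1 CPM. In these 3 lists edgeR called 0 of the 13 tested genes at the adjusted threshold and 0 at an unadjusted p under 0.05. Of 4 tested markers of myelinating oligodendrocytes, Mbp fell (log2 fold change -0.66).

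Set against the summed reads of the astrocyte markers in the same library, the 4 astrocytic members gave different values. For Slc1a3 no difference from this sum was detected: its log2 ratio to it was -0.69 ± 0.0932 in control and -0.62 ± 0.0606 in *Neuid* KD (SD, n = 6 per group), a difference of 0.07 (95% interval -0.02 to 0.17, exact permutation test, adjusted p = 0.156). Slc1a2 rose by less than the sum, with a difference in log2 ratio of -0.56 (interval -0.73 to -0.41), and so did Glul, with -0.33 (interval -0.43 to -0.25). Slc38a3 rose by more than the sum, with a difference of 0.89 (interval 0.68 to 1.08). For these 3 ratios the groups did not overlap and the exact permutation test gave an adjusted p of 0.0026. Markers with the most reads weigh most in the sum, and single markers lay on either side of the members: Gfap (log2 fold change 0.59), Sox9 (0.47) and Aldoc (0.47) were below Slc1a2 and Glul, while S100b (2.64), Gja1 (2.27), Aqp4 (2.10) and Acsbg1 (2.06) were at or above Slc38a3. A neuronal share of the Slc1a2 reads was not measured.

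**Figure D3:**
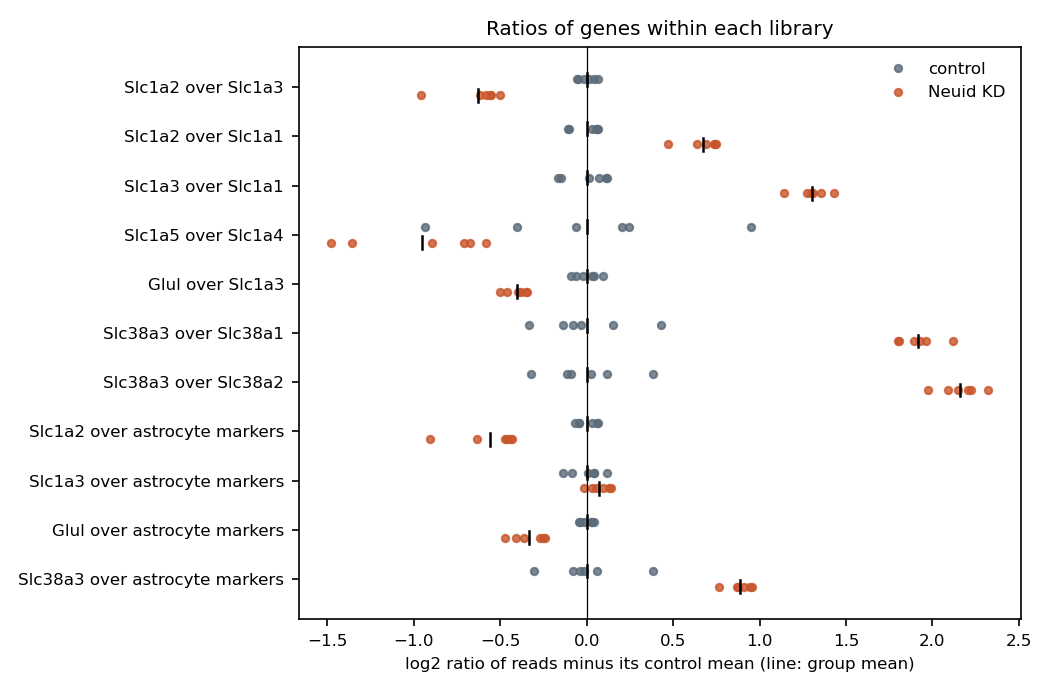
Log2 ratios of reads within a library, each minus its mean over the control libraries (horizontal axis, log2 units), 1 point per library, with short lines at the group means. Slc38a3 over Slc38a2 shifted most, by 2.16, and the groups overlap for Slc1a3 over astrocyte markers and for Slc1a5 over Slc1a4.

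Levels of several members also went with the background reads within the groups. Pearson's r between log2 CPM and log2 background was taken across the 12 libraries after subtraction of the group means. It was -0.86 for Slc1a1, -0.85 for Slc1a4, -0.77 for Slc1a2, -0.67 for Slc1a3, -0.65 for Slc38a1 and -0.59 for Glul. For Slc38a2 it was -0.42, for Slc38a3 -0.12 and for Slc1a5 0.23. These values are given as a description because the libraries share depth and scaling. Among the 7 libraries with at least 100 CPM of background and the 5 libraries under it, the log2 fold changes were 0.60 and 0.59 for Slc1a2, 1.29 and 1.13 for Slc1a3, 0.40 and 0.28 for Slc1a4, 0.82 and 0.83 for Glul, and 2.02 and 2.07 for Slc38a3. The 5 genes passed the test in both subsets, of which the subset under 100 CPM held 2 control and 3 *Neuid* KD libraries. Within the groups, r between the 5 genes that rose was between 0.34 and 0.86 over their 10 pairs (12 libraries, no test). This was not particular to them. Slc38a1 with Slc38a2 (0.85), Slc1a1 with Slc38a1 (0.84) and Slc1a1 with Slc1a2 (0.83) had values as high. Slc38a3 with Slc1a1 (0.09) and with Slc38a1 (0.06) had low values, and Slc1a5 had a negative r with each other member.

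The genes whose levels over the 12 libraries were most like those of the 4 astrocytic members were found among 8919 genes that averaged 10 CPM or more. For Slc1a2 they were Ttyh3 (r = 0.994), Ntrk2 (r = 0.992) and Cadm1 (r = 0.990), with log2 fold changes between 0.39 and 0.50. For Slc1a3 they included Ndrg2 and Plpp3 (r = 0.997 for each), with log2 fold changes of 1.56 and 1.49. For Glul they were Tnfrsf19 (r = 0.992), Ptn (r = 0.990) and Plpp3 (r = 0.990). For Slc38a3 they were Mmp14 (r = 0.994), Ednrb (r = 0.994) and Fgfr3 (r = 0.993), with log2 fold changes of 0.74, 1.58 and 1.32. Ndrg2 and Fgfr3 were also on the list of astrocyte markers. The points share libraries, depth and the group difference, which all of these genes had, so the values of r are descriptions.

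Around the 9 genes, other genes of the glutamate-glutamine pathway were called in both directions. Of 43 such genes fixed by name, 39 were tested, 4 rose (6.31% of all tested genes did), 4 fell (2.42% of all tested genes did) and 31 did not pass, with a median log2 fold change of -0.02. The further Slc1 and Slc38 genes had 6 of 10 members tested, and edgeR called 0 of them at the adjusted threshold and 0 at an unadjusted p under 0.05, as did DESeq2 and limma-trend at the adjusted threshold. Slc38a10 and Slc38a7, the most abundant of these, were at 82.9 and 39.5 CPM in control and at 81.8 and 38.4 CPM in *Neuid* KD.

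Among 11 enzymes of glutamate and glutamine, 2 rose and 1 fell. Glud1 (glutamate dehydrogenase, which turns glutamate into alpha-ketoglutarate) was between 98.1 and 118 CPM in control and between 153 and 173 CPM in *Neuid* KD, a log2 difference of 0.59 (adjusted p = 2.7e-07, edgeR). Gpt2, the mitochondrial alanine transaminase, was between 30.8 and 35.6 CPM and between 40.3 and 44.3 CPM, also without overlap (log2 fold change 0.38, adjusted p = 3.8e-05, edgeR). With offsets for GC content and length the log2 fold changes were 0.65 for Glud1 and 0.41 for Gpt2, with adjusted p of 0.136 and 0.462. Asns, which makes asparagine with glutamine as nitrogen donor, fell by 0.23 on the log2 scale (adjusted p = 0.0289, edgeR), with overlap between the groups, and did not pass without control replicate 3, 5 or 6 or *Neuid* KD replicate 5 (adjusted p from 0.0548 to 0.0604). With the offsets for GC content and length Asns was at -0.15 with an adjusted p of 0.9998, and with no filter on low counts at -0.22 with an adjusted p of 0.42.

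Of 4 mitochondrial carriers, Slc25a18, a glutamate carrier of the inner membrane, rose (6.76 ± 0.737 CPM in control, 11.9 ± 1.39 CPM after *Neuid* KD, SD, n = 6 each; log2 fold change 0.81, adjusted p = 9.7e-06, edgeR), without overlap, while Slc25a22, the other glutamate carrier, was at 146 and 138 CPM with a log2 fold change of -0.08. Of 3 vesicular transporters, which load glutamate into synaptic vesicles, Slc17a6 (VGLUT2) fell from 26.4 ± 3.19 to 20.9 ± 1.99 CPM (log2 fold change -0.34, adjusted p = 0.0123, edgeR), with overlap. Slc17a7 (VGLUT1) was the most abundant of them by reads, at 444 and 464 CPM, and did not pass (adjusted p = 0.61, edgeR). The call of Slc17a6 was lost with offsets for GC content and length (adjusted p = 0.943) and with no filter on low counts (adjusted p = 0.0711).

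Of 5 plasma membrane exchangers, Slc7a11, the cystine-glutamate exchanger that lets glutamate out of the cell, fell (10.9 ± 2.17 CPM in control, 7.33 ± 1.19 CPM after *Neuid* KD, SD, n = 6 each; log2 fold change -0.57, adjusted p = 0.00963, edgeR). Its groups overlapped, and in the 5 libraries under 100 CPM of background its log2 fold change was -0.41 with an adjusted p of 0.0729. With offsets for GC content and length its adjusted p was 0.0721. Slc7a5, the exchanger LAT1 that trades glutamine for leucine, rose from 118 ± 12.3 to 146 ± 12.0 CPM (log2 fold change 0.32, adjusted p = 0.00853, edgeR), with overlap, and did not pass with no filter on low counts (adjusted p = 0.153) or with the offsets (adjusted p = 0.776). Of 7 genes of the amino acid response, Trib3, a pseudokinase induced by ATF4, fell from 1.87 ± 0.246 to 0.616 ± 0.216 CPM without overlap (log2 fold change -1.58, standard error 0.308, adjusted p = 0.00239, edgeR), and Atf4 itself was at 138 and 144 CPM and did not pass (adjusted p = 0.606, edgeR). Trib3 had 338 reads over all 12 libraries and was not tested with the minimum mean of 5 CPM. Among the 5 libraries under 100 CPM of background its log2 fold change was -1.25, with an adjusted p of 0.0499 (edgeR). For the 3 binding partners of the uptake transporters, Arl6ip5, Rtn2 and Ajuba, edgeR called 0 at the adjusted threshold and 0 at an unadjusted p under 0.05, and DESeq2 and limma-trend called 0.

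Across all the lists, the share of genes that rose was highest among astrocyte markers, followed by progenitor markers and the members. The tested astrocyte markers had log2 fold changes between 0.47 and 2.64, a range that holds those of Slc1a2, Slc1a3, Glul and Slc38a3 but not the 0.38 of Slc1a4. The part that the signal carried by the astrocyte and progenitor markers had in the rise of the members was not tested.

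**Figure D4:**
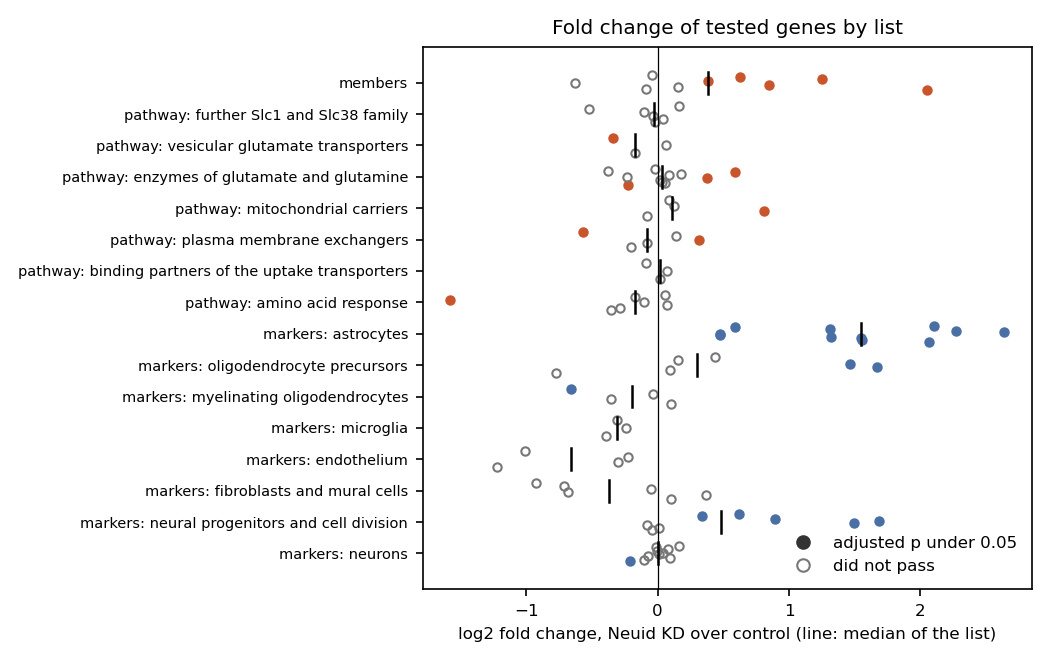
Log2 fold change of Neuid KD over control (horizontal axis) of each tested gene in the member, pathway and marker lists, with a short line at each list's median; filled points had an adjusted p under 0.05 (orange for members and pathway genes, blue for marker genes) and open points did not pass. The median was 0.38 for the members, -0.02 over the pathway genes and 1.55 for the astrocyte markers.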

How the data were processed

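Total RNA of 12 samples (6 control, 6 *Neuid* KD) was made into SMARTer stranded libraries. The authors aligned the reads with STAR to mm10 (GRCm38), counted them per gene with featureCounts, and deposited the raw counts of each library without normalization. The annotation release and the strand setting of the counting are not given in the sources used here. Each pair of libraries of a group differed by more than sampling noise (chi-square of counts over genes).

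Symbols, positions and exon lengths came from GENCODE M21 (GRCm38). Counts were tested with edgeR 4.0.16 (R 4.3.3): filterByExpr, TMM normalization, group as the only term, quasi-likelihood test, and Benjamini-Hochberg adjustment over 19578 genes. CPM are counts scaled by the TMM-normalized library size. Genes rose or fell at an adjusted p under 0.05. Intervals are the log2 fold change ± the t quantile times its standard error. Ratios had 0.5 reads added to each count and were compared by exact permutation. Reads in a library are not independent molecules. The fit and the permutation test were tested on simulated data.

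The genes named were the 9 members, each of 43 pathway genes that passed the adjusted p (others by count or value), the 3 genes most correlated with Slc1a2, Slc1a3, Glul and Slc38a3, the targeted gene, and the marker lists. The members and lists were chosen with earlier results of these data known, as was the measure of background reads. The alternatives were other scaling (RLE, upper-quartile), DESeq2 1.42.0, limma-trend (limma 3.58.1), other filters, covariates for unwanted variation or background, subsets by background, offsets for GC content and length (known for 99.9% of the tested genes), a replicate block, each library left out in turn, and a threshold of 0.3. Some items that these rules name are not reported here.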

Additional observations from a re-analysis of the deposited data

Results flagged for a closer look

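Of 34 groups of 6 libraries examined with Dixon's test, 2 held a library far from the others, and chance gives about 1 in 20. Slc1a2 was at 1425 CPM in *Neuid* KD replicate 1, while the other 5 *Neuid* KD libraries were between 1825 and 2004 CPM, so that the gap was 0.69 of the range of the group. That library had 11152556 reads, the fewest, and 617 CPM of background reads, and whether either bears on its level of Slc1a2 was not tested. Slc25a18 was at 8.14 CPM in control replicate 3, while the other 5 control libraries were between 6.03 and 6.76 CPM (gap 0.653 of the range).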

How the results depend on the processing

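Over all alternatives, Slc1a2, Slc1a3, Glul and Slc38a3 kept their direction and passed the test, with log2 fold changes from 0.57 to 0.66, 1.13 to 1.29, 0.79 to 0.93 and 1.98 to 2.12. No value reversed: 661 comparisons with the main values stayed alike, 16 lost and 7 gained a call, and 12 moved. Alike did not mean equal: the alternatives gave 4 to 6 members called higher, all counted as alike. Upregulated genes numbered from 364 to 797 over the alternatives other than leave-one-out. With offsets for GC content and length Slc1a4 did not pass (0.44, adjusted p = 0.602, against adjusted p from 5.1e-09 to 0.0182 in the other alternatives), and downregulated genes numbered 98. Slc38a1 passed with a minimum mean of 5 CPM (0.12), with the factor of unwanted variation (0.14), with the background as a covariate (0.14), and without *Neuid* KD replicate 1 (0.15, adjusted p = 0.0341). Slc38a2 passed as the 1 member that fell with upper-quartile scaling (-0.15) and with the 5 CPM minimum (-0.13). The 155 downregulated genes became 260 with DESeq2, 103 with the 5 CPM minimum, 270 with the factor, 300 with the background covariate and 99 among libraries with at least 100 CPM of background. They numbered 121 to 269 with each library left out, 269 without *Neuid* KD replicate 1, and upregulated genes 425 to 475 (477 with all libraries). Above 0.3 there were 797 upregulated and 328 downregulated genes. Leave-one-out left 5 or 6 members called higher, 0 lower, and log2 fold changes from -0.09 to -0.03 for Slc1a1, 0.59 to 0.66 for Slc1a2, 1.198 to 1.289 for Slc1a3, 0.35 to 0.41 for Slc1a4, -0.76 to -0.44 for Slc1a5, 0.82 to 0.89 for Glul, 0.11 to 0.18 for Slc38a1, -0.12 to -0.06 for Slc38a2 and 1.98 to 2.12 for Slc38a3. The log2 ratio of Glul to Slc1a3 was lower by 0.30 among libraries under 100 CPM of background. With no filter on low counts the median of all genes moved to -0.14.

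Libraries were not seen to pair by replicate number over all genes. The correlations between same-numbered libraries ran from -0.64 to 0.77, and 2 of 6 control libraries correlated best with their own number. Replicates 1 and 3, whose libraries had alike background reads, had r of 0.77 and 0.75. Replicate 4, with 592 CPM of background in control and 50.5 CPM in *Neuid* KD, had -0.64. A shared culture or litter under the same number was not tested. With the replicate block Slc38a1 passed (0.15, adjusted p = 0.0458) and the ratio of Slc1a5 to Slc1a4 did not (-0.95, paired exact permutation, adjusted p = 0.0625), and the block changed no other member's call. The causes of these shifts were not tested. Slc1a5, with 16 to 62 reads per library, is the member whose depth limits the test most.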
